A study of Mus musculus with 12 samples.

Results

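ATAC-seq peaks in gene deserts were examined in mouse embryonic stem cells (ESCs). This assay uses a transposase that cuts open chromatin and tags the cut ends for sequencing, and a peak is a place where the resulting fragments exceed the local background. A desert peak was defined as a peak on chromosomes 1 to 19 whose summit, the position of highest signal, lay more than 200 kb from every transcript start of a protein-coding gene in GENCODE vM21. This rule used positions alone and selected 44683 of 423900 autosomal peaks. The 12 lists came from 6 groups with 2 libraries each. WT ESCs and Suv39h dn ESCs, which lack both Suv39h1 and Suv39h2, the methyltransferases that trimethylate histone H3 lysine 9 in constitutive heterochromatin, were assayed as asynchronous cells, as mitotic cells and as mitotic chromosomes purified by flow cytometry (sorted chromosomes). All were grown in medium with serum and leukaemia inhibitory factor. Mitotic cells and chromosomes, but not asynchronous cells, came from cultures arrested with demecolcine at 0.1 µg/ml for 6 h. Each genotype was represented by 1 ESC line, so that genotype and line cannot be told apart, and nothing in the labels says whether the 2 libraries of a group came from separate cultures, so that p-values may measure technical spread.

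Gene deserts are long stretches without protein-coding genes. They tend to be AT rich, to hold many LINE-1 elements, to replicate late and to contact the nuclear lamina. Some hold distant enhancers of developmental regulators that lie at their edges. Peaks there can also arise at repeated sequence, because reads from 1 copy of a repeat can be placed at another copy, so the number of copies was counted for every peak.

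Peaks over the body of Suv39h1 were called in 3 of 6 WT and 0 of 6 Suv39h dn libraries, and over Suv39h2 in 4 of 6 and 3 of 6, which does not measure whether the genes are expressed. The lists differed in length and in background. They held between 1700 and 77268 autosomal peaks, and the lowest background, recovered from each peak's fold enrichment together with its p-value, ranged from 0.149 to 0.328 fragments. The shortest list, library 1 of the Suv39h dn mitotic cells, held 127 desert peaks, so that its percentages are the least precise. Its lowest background was 0.204, above the 0.149 of WT asynchronous library 1 with 21627 autosomal peaks. In this pair of libraries list length thus did not follow background. Within asynchronous cells the longer lists, of the libraries numbered 2, had the higher backgrounds (0.306 and 0.304, against 0.149 and 0.172). In sorted chromosomes a background of 0.187 went with 44494 autosomal peaks and one of 0.268 with 43780. A peak lay within 1 kb of a start of 3 to 6 of 8 ESC genes in the asynchronous libraries, of 2 to 5 in sorted chromosomes and of 0 to 3 in mitotic cells. For 5 fibroblast genes the numbers were 0 to 1, 1 to 2 and 0.

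Several kinds of sequence recurred at desert summits, and 4 windows of 201 bases are shown to make them visible. All are the plus strand of GRCm38 from RefSeq, the assembly that mm10 names. The first window, in the desert beside Cdh20, is from the region that ranked highest of those called in all 12 libraries, with its central 31 bases in capitals. The second is from the highest ranked region called in all 4 asynchronous libraries alone and the third from the highest ranked region called in all 4 libraries of sorted chromosomes alone, with the same use of capitals.
chr1:102628174-102628374: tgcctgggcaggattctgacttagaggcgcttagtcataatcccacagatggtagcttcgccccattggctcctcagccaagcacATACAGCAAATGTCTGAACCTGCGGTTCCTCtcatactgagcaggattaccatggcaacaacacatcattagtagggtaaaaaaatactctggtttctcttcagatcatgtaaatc
chr8:51181622-51181822: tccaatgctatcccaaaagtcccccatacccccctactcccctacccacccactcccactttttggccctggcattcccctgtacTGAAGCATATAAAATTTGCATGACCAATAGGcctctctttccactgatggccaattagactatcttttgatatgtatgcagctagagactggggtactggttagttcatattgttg
chr19:57926503-57926703: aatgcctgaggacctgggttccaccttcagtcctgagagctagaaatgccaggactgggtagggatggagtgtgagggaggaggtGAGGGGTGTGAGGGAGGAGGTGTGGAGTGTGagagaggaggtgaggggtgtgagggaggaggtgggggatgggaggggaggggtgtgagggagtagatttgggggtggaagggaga

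The fourth window, near Cntn5, holds 2 of 5 words of 20 bases that recurred in desert windows, in capitals. It was chosen after its values were seen.
chr9:11140675-11140875: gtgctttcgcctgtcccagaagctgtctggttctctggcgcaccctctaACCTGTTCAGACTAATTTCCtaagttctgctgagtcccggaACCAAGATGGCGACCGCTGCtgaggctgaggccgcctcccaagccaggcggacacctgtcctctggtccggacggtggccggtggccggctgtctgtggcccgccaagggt

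Deserts made up 993 intervals with 565 Mb, or 23.6% of the sequenced autosomal bases. Their median length was 326 kb and 169 were at least 1 Mb long. Desert peaks were a smaller share of every list than that. In asynchronous cells 8.49% and 8.83% of peaks lay in deserts for the WT pair of libraries, compared with 9.93% and 12.9% for the Suv39h dn pair. In mitotic cells the shares were 4.95% and 6.42% for WT, compared with 7.47% and 6.46% for Suv39h dn. In sorted chromosomes they were 13.0% and 10.0% for WT, compared with 12.4% and 9.05% for Suv39h dn. The 95% Wilson interval of the least precise value, 7.47% from 127 of 1700 peaks, ran from 6.31% to 8.82%, and it covers counting error only. All 12 shares were therefore under the 23.6% that deserts take of the bases, with the mitotic cells lowest.

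**Figure D1:**
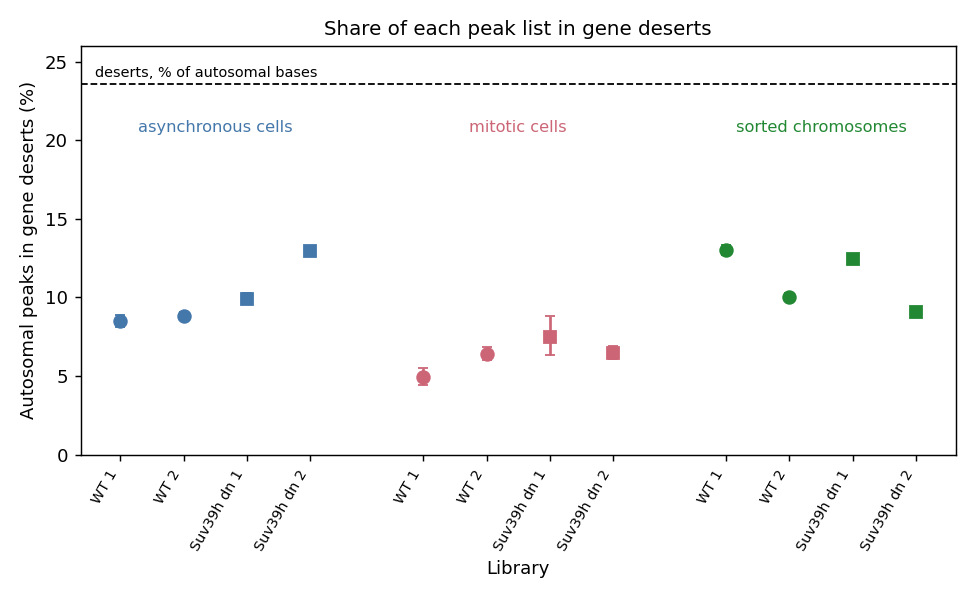
Share of the autosomal peaks of each library (x axis) that lie in gene deserts (y axis, percent), with circles for WT, squares for Suv39h dn and bars for the 95% Wilson interval. The 12 shares lie between 4.95% and 13.0%, below the dashed line at 23.6%, the share of autosomal bases in deserts.

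Peaks thinned out with distance from a start in every preparation. In the 4 asynchronous libraries the density fell from between 73.6 and 176 peaks per Mb within 1 kb of a start to between 3.59 and 18.6 at 200 to 500 kb and between 2.76 and 16.4 beyond 500 kb. In sorted chromosomes it was between 112 and 198 within 1 kb, between 7.84 and 13.9 at 200 to 500 kb and between 5.82 and 10.8 beyond. In mitotic cells the corresponding ranges were 7.69 to 67.6, 0.264 to 1.71 and 0.168 to 1.44 peaks per Mb. No step appeared at the limit of the rule, with 5 to 343 peaks per library between 190 and 200 kb and 4 to 361 between 200 and 210 kb. Over the whole of the rest of the autosomes peaks were 2.07 to 5.93 times as dense as in deserts, most in WT mitotic library 1 and least in WT chromosome library 1.

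**Figure D2:**
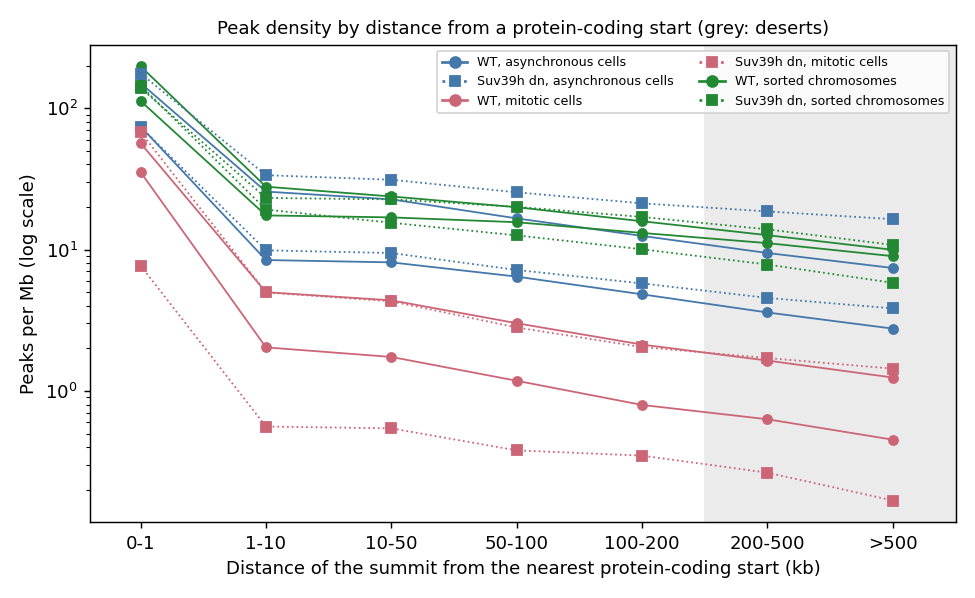
Peaks per Mb (y axis, log scale) by distance of the summit from the nearest protein-coding transcript start (x axis, kb), 1 line for each library. In all 12 libraries the density beyond 500 kb is the lowest of the line, and the grey area marks deserts.

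Desert peaks lay far out and mostly outside annotated genes. The median distance from a start was 361 to 403 kb in a library, 30.7% to 38.1% of the desert peaks lay beyond 500 kb, and the farthest summit was 2705 kb away. Between 78.7% and 81.9% of them were intergenic, 8.66% to 10.2% were in an intron of a protein-coding gene with a distant start, and 7.09% to 9.52% were within a long noncoding RNA gene. A start of a gene that is not protein coding lay within 1 kb of 3.86% to 11.1% of desert peaks.

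The preparations were compared to ask whether mitosis and chromosome purification alter how much of the accessible genome lies in deserts. The mean share was 10.0% ± 2.03 (SD, n = 4) in asynchronous cells, 6.32% ± 1.04 (SD, n = 4) in mitotic cells and 11.1% ± 1.89 (SD, n = 4) in sorted chromosomes, with both genotypes together. Mitotic minus asynchronous cells gave -3.72 percentage points and sorted chromosomes minus mitotic cells 4.80, and in neither comparison did the preparations overlap. For each, the exact two-sided permutation test gave p = 0.0286, the smallest that 4 against 4 libraries allow, and an adjusted p of 0.0571 by the Benjamini-Hochberg method over the 14 tests made, so that neither passed 0.05 after adjustment. Within WT the differences were -2.98 and 5.83 percentage points, and within Suv39h dn -4.47 and 3.77. Without the shortest list they were -4.11 and 5.18, with the same exact permutation p of 0.0286. With only peaks of q at or under 1e-05 they were -1.62 (exact permutation p = 0.457) and 4.62 (exact permutation p = 0.0857).

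Sorted chromosomes and asynchronous cells overlapped. The difference of 1.08 percentage points gave an exact permutation p of 0.371, and it was 2.86 within WT and -0.705 within Suv39h dn. It changed sign, to -0.246, when only peaks with single-copy central bases were kept, and it was 3.00 with only peaks of q at or under 1e-05, 3.44 with lists of equal length and 3.60 with the 5000 strongest peaks of a list, each with an exact permutation p of 0.0571.

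The genotypes were compared because Suv39h enzymes act on gene-poor heterochromatin. The share in Suv39h dn was higher than in WT by 2.77 percentage points in asynchronous cells, where the values did not overlap, and by 1.28 in mitotic cells, where they did not overlap either. Without the shortest list the remaining mitotic Suv39h dn value, 6.46%, stood against 4.95% and 6.42% for WT. The asynchronous means were 8.66% ± 0.244 (SD, n = 2) for WT and 11.4% ± 2.14 (SD, n = 2) for Suv39h dn. In sorted chromosomes the difference was -0.788 percentage points, with overlapping values and means of 11.5% ± 2.09 (SD, n = 2) for WT and 10.7% ± 2.38 (SD, n = 2) for Suv39h dn. By replicate number WT was the higher in both chromosome pairs, 13.0% against 12.4% and 10.0% against 9.05%. A single preparation with 2 against 2 libraries cannot give an exact p under 0.333. Over the 3 preparations the mean difference was 1.09 percentage points, with an exact permutation p of 0.269 over 216 arrangements within preparations. Leaving out Suv39h dn asynchronous library 2, the longest list, gave 0.586 and leaving out Suv39h dn chromosome library 1 gave 0.527 percentage points.

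Desert summits differed in sequence from the other summits of the same list. GC content within 100 bp of the summit was 47.1% to 57.2% in deserts and 53.2% to 58.1% elsewhere. It was lower in deserts in 12 of 12 libraries, with a mean difference of -4.22 percentage points (exact permutation p = 0.000488, the smallest that 12 libraries allow, adjusted p = 0.00171). The genome shows a like gap, with 38.8% GC in deserts and 42.9% elsewhere, so that summits in both were richer in GC than their surroundings. Soft-masked bases, which the reference marks as repeats, took 45.2% to 63.9% of desert windows and 14.2% to 24.7% of the others, while they take 38.8% of desert bases and 31.9% of the rest. This comparison was added after the data were seen. The difference of 32.7 percentage points had the same direction in 12 of 12 libraries and the same exact permutation p of 0.000488.

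Desert peaks lay at repeated sequence more often than other peaks. In asynchronous cells the central 31 bases occurred more than once in the genome at 31.05% and 38.1% of the desert peaks of the WT pair, compared with 32.4% and 41.4% for the Suv39h dn pair. In mitotic cells the values were 40.6% and 34.7% for WT, compared with 63.0% and 36.9% for Suv39h dn. In sorted chromosomes they were 47.0% and 48.0% for WT, compared with 46.3% and 53.2% for Suv39h dn. All 4 chromosome libraries were above all 4 asynchronous ones. The same order held outside deserts, with 15.7% to 19.2% in chromosome libraries and 11.4% to 14.7% in asynchronous ones, so it is not particular to deserts. Peaks outside deserts reached 10.4% to 24.3%, and desert peaks exceeded them in 12 of 12 libraries by 28.1 percentage points on average (exact permutation p = 0.000488, adjusted p = 0.00171).

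Among desert peaks the multi-copy share was 35.8% ± 4.86 (SD, n = 4) in asynchronous cells, 43.8% ± 13.0 (SD, n = 4) in mitotic cells and 48.6% ± 3.16 (SD, n = 4) in sorted chromosomes. Sorted chromosomes exceeded asynchronous cells by 12.9 percentage points (exact permutation p = 0.0286, adjusted p = 0.0571). They exceeded mitotic cells by 4.80 (exact permutation p = 0.514), a difference that became 11.2 with an exact permutation p of 0.0286 without the shortest list, whose 63.0% rests on 127 peaks. The genotypes differed by 5.61 percentage points (exact permutation p = 0.259), by 1.26 without the shortest list and by 9.97 without the other mitotic Suv39h dn library. These comparisons were added after the data were seen. With single-copy peaks alone the desert share of mitotic minus asynchronous cells was -3.40 and that of chromosomes minus mitotic cells 3.16 percentage points, both with an exact permutation p of 0.0286.

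The repeats at desert summits were in part the same repeat. The commonest words of 20 bases were searched in the 25989 regions left after overlapping desert peaks of all libraries were merged, and each further word was taken from the regions without the words before it. The 5 words were chosen on the pooled regions, so their levels are given as a description. To that pool each chromosome library gave 3960 to 7129 desert peaks, each asynchronous one 1836 to 10003 and each mitotic one 127 to 903. The choice can thus favour words common in the longer lists. It also favours desert peaks over other peaks.
word 1: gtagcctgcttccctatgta
word 2: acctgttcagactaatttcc
word 3: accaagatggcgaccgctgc
word 4: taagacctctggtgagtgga
word 5: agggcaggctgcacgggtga

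Copies of a word followed each other at fixed steps. Word 1 occurred 7618 times on chromosomes 1 to 19, X and Y, and 3514 of its 4635 pairs of neighbours within 1000 bp were 208 bp apart. For word 3 the step was 212 bp in 3793 of 4453 pairs and for word 5 it was 206 bp in 465 of 968. Tandem repeats of about this kind are known from the promoters of mouse LINE-1 elements. No repeat annotation was used here, so the words are not assigned to a family.

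The mean share of desert peaks with any of the 5 words was lowest in mitotic cells and highest in sorted chromosomes. The choice of words on pooled desert regions can tilt this order. In asynchronous cells it was 8.93% and 18.9% for WT, compared with 8.77% and 23.4% for Suv39h dn. In mitotic cells it was 3.81% and 6.11% for WT, compared with 4.72% and 11.3% for Suv39h dn. In sorted chromosomes it was 24.5% and 27.6% for WT, compared with 24.3% and 34.0% for Suv39h dn, above each of the 8 other libraries. Of the desert windows of the genome 0.287% held a word, and of the peaks outside deserts 0.314% to 5.42%. The values of both genotypes overlapped within each preparation.

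**Figure D3:**
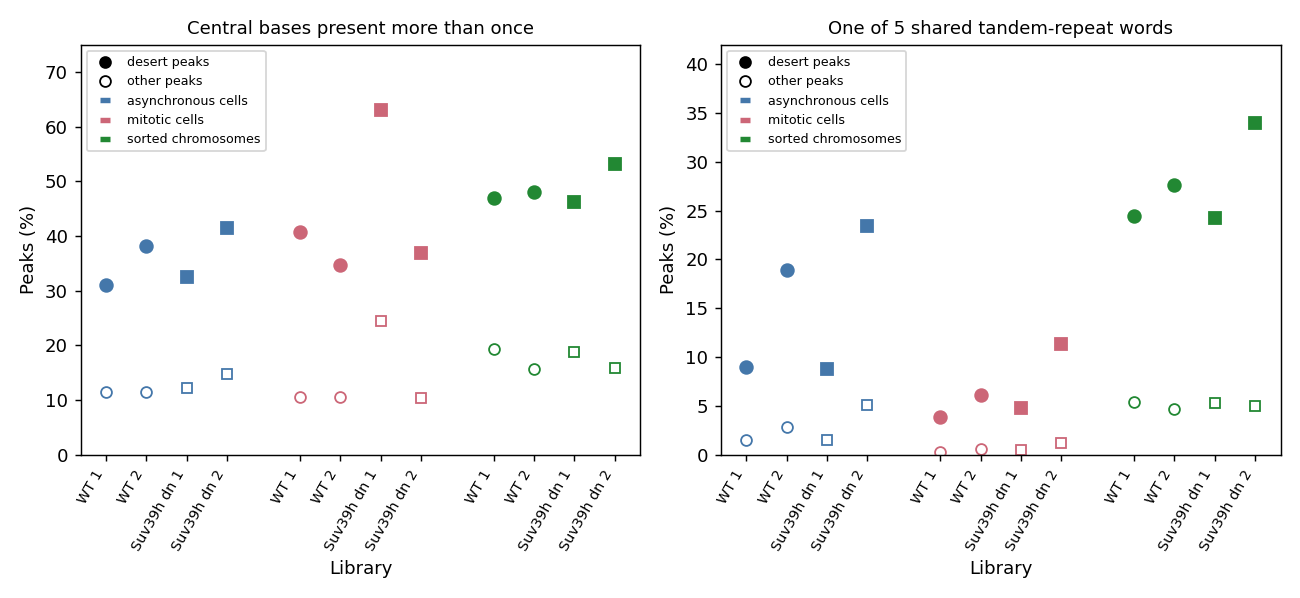
Percent of peaks (y axis) in each library (x axis) whose central 31 bases occur more than once (left) or that hold one of 5 shared words of 20 bases (right), for desert peaks (filled) and other peaks (open), with circles for WT and squares for Suv39h dn. Desert peaks lie above the other peaks of the same library in all 12, and the right panel reaches 24.3% to 34.0% in sorted chromosomes. The words were chosen on desert regions, which favours desert peaks in the right panel.

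Motifs of transcription factors were searched on both strands of the 201-base windows around summits. The motif of the insulator protein CTCF, searched as 1 form of 12 bases, was present at 13 of 1836 and 81 of 4868 desert peaks in the WT asynchronous libraries, or 0.708% and 1.66%, compared with 1.08% and 1.29% for Suv39h dn. In mitotic cells it was present at 1.27% and 1.20% for WT, at 1.77% for Suv39h dn library 2 and at 0 of 127 in library 1, which allows a share of up to 2.36%. In sorted chromosomes it was at 0.0173% and 0.0153% for WT, compared with 0.0701% and 0.0253% for Suv39h dn, 1 to 5 peaks each. Of the windows of the genome 0.0216% in deserts and 0.0620% elsewhere hold the motif. Of the peaks outside deserts 0.148% to 0.176% held it in the chromosome libraries and 1.65% to 2.49% in the others. Chromosome libraries were thus low in both classes. Desert peaks had the motif less often than other peaks of the same list in 12 of 12 libraries, with a mean difference of -0.629 percentage points (exact permutation p = 0.000488, adjusted p = 0.00171). Windows of the genome differ in the same direction, and the difference was not scaled to them. With q at or under 1e-05 the difference was -0.202 percentage points, with an exact permutation p of 0.105, so the call did not hold among stronger peaks.

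The other motifs are described by counts. The Sp/Klf motif ggggcgggg, typical of GC-rich promoters, was at 0.295% to 2.36% of desert peaks (up to 1.66% without the shortest list) and was less frequent than elsewhere in 12 of 12 libraries. Of the windows of the genome 0.131% in deserts and 0.425% elsewhere hold it, a gap in the same direction. The Esrrb motif tnaaggtca, of a nuclear receptor of the pluripotency network, was at 0.707% to 3.15% (up to 2.02% without the shortest list). It was more frequent in deserts than elsewhere in 10 of 12 libraries, against 0.941% of desert windows and 1.17% of other windows. The composite Oct4-Sox2 motif of pluripotency factors, also searched as 1 form of 12 bases, was found at 5 and 21 desert peaks of the asynchronous WT libraries and at 10 and 25 of the Suv39h dn ones, or 0.250% to 0.431%, and at 0 desert peaks of the 4 chromosome libraries, which allows up to 0.0421% to 0.0758%. In mitotic cells the motif was at 0 to 0.332% of desert peaks. Outside deserts it was also rare in chromosome libraries, at 0 to 0.00517% of peaks. There it was at 0.147% to 0.232% in asynchronous and 0.115% to 0.138% in mitotic libraries. Desert peaks had the higher percent in 7 of 12 libraries, the lower in 3 and an equal one in 2. The share of desert windows of the genome with the motif was 0.0226%, against 0.0179% of other windows. The AP-1 motif tgantca was more frequent in deserts in 7 of 12 libraries and the REST motif ttcagcacc in 5 of 12.

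Peak heights in deserts and elsewhere were close. Fold enrichment, as given by the authors, is the ratio of fragments at the summit to background, with the same constant added to both. It is thus lower than the plain ratio where the background is low. Its median was 4.17 to 7.48 in deserts and 4.21 to 6.13 elsewhere. The difference of 0.04 on the log2 scale gave an exact permutation p of 0.342. The highest desert value came from the shortest list, without which the difference was 0.0063 and the desert range ended at 6.13. The difference passed the threshold with q at or under 1e-05 (0.10, exact permutation p = 0.0176), with lists of equal length (0.13, exact permutation p = 0.000488) and with the 5000 strongest peaks (0.0344, exact permutation p = 0.0391). The median desert peak held 4 to 8 fragments at its summit.

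Most desert regions were called once. Of the 25989 regions, 17321 had a peak in 1 library, 8668 in at least 2, 621 in at least 6 and 31 in all 12. That is 33.4% in at least 2 and 2.39% in at least 6, against 37.6% and 4.11% of the 199629 other regions.

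**Figure D4:**
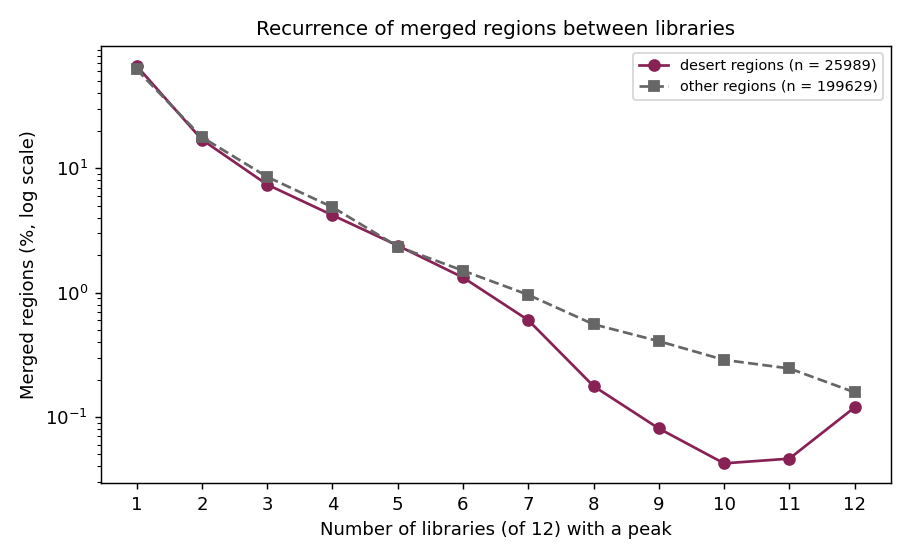
Percent of merged regions (y axis, log scale) by the number of libraries with a peak there (x axis), for 25989 desert regions (circles) and 199629 other regions (squares). Both lines fall up to 10 libraries, with 66.6% of desert regions in 1 library, and the desert line lies below the other from 6 libraries on.

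Between 8.69% and 23.6% of the merged desert regions of a replicate pair had a peak in both libraries. Unequal list lengths limit this measure. The Suv39h dn asynchronous libraries, for example, held 2405 and 10003 desert peaks. By class of p-value, 60.8% to 100% of those of library 1 had a partner in library 2. The other way it was 3.65% to 72.6%. In WT, 23.6% of the merged desert regions of both asynchronous libraries had a peak in both, against 28.2% of the other regions. In Suv39h dn asynchronous cells the values were 17.4% and 24.3%. In mitotic cells they were 20.4% and 22.9% for WT, compared with 8.69% and 7.58% for Suv39h dn. In sorted chromosomes they were 15.5% and 15.4% for WT, compared with 14.7% and 15.5% for Suv39h dn. Desert regions were thus shared less often in 4 of 6 groups. The mean difference of -2.25 percentage points was not past the threshold (exact permutation p = 0.188 over 6 groups, smallest possible 0.0312). With single-copy peaks it was -5.17 (exact permutation p = 0.0312), and with lists of equal length it was 3.67 (exact permutation p = 0.312), so its sign depended on which peaks were used.

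Recurrence followed height in both classes. Of desert peaks with a −log10 p under 6, a median of 14.5% had a partner in the other library of the group. This median is over the 11 libraries with at least 20 such peaks. For other peaks the median was 16.1% over 12 libraries. The 12 include the shortest list, at 35.6%, so the medians cover unlike sets. At a −log10 p of 20 or more, the medians were 97.9% and 97.5%. Libraries of different genotype but the same preparation shared a median of 25.1% of desert regions in asynchronous cells. The medians were 18.1% in mitotic cells and 15.0% in sorted chromosomes. Libraries of different preparations shared a median of 2.62%, over unlike kinds of pair. Asynchronous with mitotic libraries shared 1.02% to 23.2%, and chromosome libraries with libraries of the other preparations 0.848% to 7.55%. The lowest value of each kind came from the shortest list.

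Multi-copy sequence, shared words and masked repeats changed differently with recurrence. Multi-copy central bases were found at 34.6% of the 17321 regions called in 1 library, at 41.7% of those in 2 to 3, 54.2% of those in 4 to 6, 50.2% of those in 7 to 9 and 70.4% of the 54 in 10 to 12. The 5 words were at 9.96% of regions called in 1 library and 39.9% of those in 4 to 6 libraries, but at 27.4% in 7 to 9 and at 0 of 54 in 10 to 12. Masked bases took 52.7%, 55.5%, 64.3%, 65.1% and 40.9% of the windows in these 5 classes, with the lowest value in the most recurrent one.

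The 31 desert regions called everywhere mostly ranked high in their lists. The median over them of the mean percentile of fold enrichment was 99.6 and the lowest 38.9. Of the 31 regions, 23 were multi-copy, 25 were intergenic and 2 were in an intron of a protein-coding gene. The first, at chr1:102628201-102628320 in the desert of Cdh20, a cadherin gene whose start is 2140 kb away, had a lowest fold of 42.8, a median of 48.1 and a highest of 52.8 over the 12 libraries. The gene gives its position only, and a resemblance of its sequence to ribosomal RNA was not tested. The second, at chr13:77438910-77439047 in an intron of 2210408I21Rik, ranged from 26.7 to 46.4 with a median of 43.8, and its central bases have 26 copies. The third, at chr2:5379043-5379378 in an intron near Ccdc3, ranged from 36.4 to 42.5 with a median of 39.7.

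The next 3 by rank were at chr5:60042837-60043080, 1766 kb from G6pd2, with a fold of 17.8 to 46.7, at chr18:68692067-68692305, 263 kb from Mc2r, with a fold of 27.8 to 42.4, and at chr8:15519783-15520111, 401 kb from Myom2, with a fold of 25.0 to 35.5. The region near G6pd2 is a match to the mitochondrial genome, with 78.02% of its words of 20 bases found there. Such a match exceeded 50% in 3 of the 31 regions, the others lying near Nxph1 and Galc. The authors removed mitochondrial alignments before calling peaks, and reads of mitochondrial origin placed at nuclear copies cannot be told apart from nuclear reads here. The windows of the first and the third ranked regions, near Cdh20 and Ccdc3, resemble ribosomal RNA sequence by eye. The window near Ccdc3 is not shown above. None of the windows of these regions was compared with the ribosomal RNA genes. Copies were counted in the assembled chromosomes alone, so that a window called single copy, such as those near Cdh20 and Ccdc3, can have copies that are not counted.

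Telomere repeats accounted for 12 of the 31. A run of at least 4 perfect copies of ttaggg, the sequence that caps mouse chromosome ends, lay within 100 bp of these summits. Deserts of the assembly hold 60 such loci, and 0.00245% of desert windows contain one, about the same as the 0.00238% of other windows. In asynchronous cells 21 and 21 of the 60 loci had a summit within 100 bp for WT, compared with 20 and 20 for Suv39h dn. In mitotic cells the numbers were 18 and 16 for WT, compared with 22 and 22 for Suv39h dn. In sorted chromosomes they were 28 and 29 for WT, compared with 27 and 28 for Suv39h dn. The 4 chromosome libraries were above the 8 others. The same held outside deserts, where the assembly has 202 such loci and the number of peaks at the repeat was 69 to 86 in chromosome libraries, 52 to 62 in asynchronous and 48 to 53 in mitotic ones. Of the 30 desert regions with the repeat, 26 were called in at least 6 libraries and 2 in 1 library.

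The number of such loci hardly followed the length of a list. The shortest list, with 127 desert peaks, held 22 peaks at telomere repeats, or 17.3% of them, and the longest, with 10003, held 20.

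The median fold of the 12 regions was higher in each chromosome library than in the 8 others. It was 13.4 to 19.96 in asynchronous cells, 11.4 to 17.2 in mitotic cells and 29.9 to 38.1 in sorted chromosomes. In the 19 other regions called everywhere the medians were 20.4 to 27.1, 27.3 to 29.6 and 22.3 to 29.4, so that those of chromosomes overlapped with both other preparations. These values are a description with no test, since the repeat was noticed in these data, and a fold also depends on the depth of a library. Reads from chromosome ends can be placed at these loci, and their part was not tested.

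**Figure D5:**
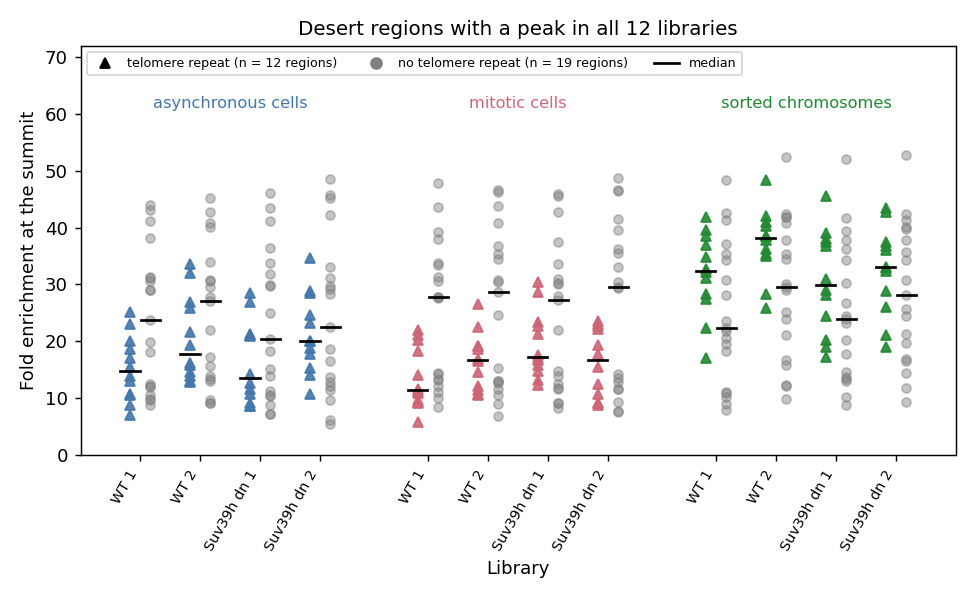
Fold enrichment at the summit (y axis) in each library (x axis) of the 31 desert regions called in all 12 libraries, with triangles for the 12 regions with telomere repeats, grey circles for the 19 others and bars for the medians. The triangles have medians of 29.9 to 38.1 in sorted chromosomes and of 11.4 to 19.96 in the 8 other libraries.

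Regions called in every library of 1 preparation and in no other were few. There were 228 for asynchronous cells, 0.877% of desert regions, where 0.914% of all regions were of this kind. There were 250 for sorted chromosomes, 0.962%, against 1.32% of all regions, and 0 for mitotic cells, as over all regions (0%). Irrespective of the other preparations, all 4 asynchronous libraries had a peak at 813 desert regions (3.13%, against 4.48% of all regions), all 4 mitotic libraries at 60 (0.231%, against 0.345%) and all 4 chromosome libraries at 666 (2.56%, against 2.7%). The desert shares were under those of all regions in each case with any call. These counts moved when a library was left out. Fewer libraries then had to be called, or to lack a peak, so that a rise is largely built in. Without WT asynchronous library 1 or Suv39h dn asynchronous library 1 the number for asynchronous cells became 604 or 478. The number for chromosomes became 407 without WT chromosome library 1, 398 without Suv39h dn asynchronous library 2 and 462 without Suv39h dn chromosome library 2. Leaving out WT mitotic library 2 gave 347 for asynchronous cells.

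The 3 highest ranked desert regions of asynchronous cells alone had single-copy central bases. At chr8:51181669-51181900, 2330 kb from Aga, the fold was 9.91 and 19.8 for WT, compared with 6.52 and 17.8 for Suv39h dn. At chr3:48068723-48068954, 1621 kb from Pabpc4l, it was 10.2 and 15.4 for WT, compared with 6.56 and 18.3 for Suv39h dn. At chr10:37378035-37378224, within a long noncoding RNA gene and 239 kb from Marcks, a substrate of protein kinase C, it was 7.72 and 10.9 for WT, compared with 7.68 and 21.2 for Suv39h dn. In all of them library 2 was the higher of each genotype.

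The 3 regions of sorted chromosomes had folds of 13.1 to 26.4. At chr19:57926548-57926657, in an intron near Atrnl1, the fold was 18.8 and 25.7 for WT, compared with 17.99 and 21.7 for Suv39h dn. At chr1:120888380-120888491, 286 kb from the homeobox gene En1, it was 20.8 and 26.4 for WT, compared with 17.5 and 19.7 for Suv39h dn, and the central bases have 6 copies. At chr16:80333205-80333745, 867 kb from the neural adhesion gene Ncam2, it was 13.1 and 24.2 for WT, compared with 15.9 and 19.5 for Suv39h dn. The windows were 53.2% to 60.7% GC, above the 44.8% to 47.3% of the asynchronous regions.

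For the genotypes, regions were merged within a preparation, and those called in both libraries of 1 genotype and in neither of the other were counted. In asynchronous cells they were 47 in WT, 0.397% of 11840 desert regions, and 378 in Suv39h dn, 3.19%. Of all asynchronous regions 0.76% and 2.42% were of this kind. In mitotic cells they were 41 in WT and 10 in Suv39h dn, 2.74% and 0.667% of 1499 desert regions, against 2.68% and 0.589% of all. The 10 are limited by the 127 desert peaks of the shortest list. In sorted chromosomes they were 484 and 320, 2.94% and 1.94% of 16486, against 2.71% and 2.09% of all.

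In mitotic cells and sorted chromosomes the desert shares thus lay near those of all regions. In asynchronous cells they lay further apart, below in WT and above in Suv39h dn, where library 2 has the longest list of all. Summed over preparations the counts were 572 and 708. Without Suv39h dn asynchronous library 2 they were 992 and 1219, with fewer libraries that had to lack a peak or to be called. With lists of equal length 28 and 24 were left.

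The highest ranked region of each kind shows the levels behind these counts. At chr4:23787484-23787678, 709 kb from Mms22l, a DNA repair gene, the fold was 10.0 and 17.5 in the asynchronous Suv39h dn libraries. At chr12:63032070-63032193, 1176 kb from Lrfn5, it was 7.23 and 6.49 in asynchronous WT. At chr5:46435774-46435835, 578 kb from Lcorl, it was 23.6 and 24.1 in WT chromosomes. This region holds a telomere repeat, with 1875 copies of the central bases. At chr18:83225488-83225617, 238 kb from Zfp516, it was 7.36 and 8.14 in Suv39h dn chromosomes.

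In mitotic cells the leading regions were also called elsewhere. At chr5:55791813-55792211, 1676 kb from Stim2, the fold was 9.01 and 7.67 in the WT mitotic libraries, and 9.30, 14.3, 6.76 and 14.9 in the asynchronous libraries of both genotypes. At chr5:106176785-106176854, 272 kb from Zfp326, it was 14.9 and 10.7 in Suv39h dn mitotic cells. That region was called in 9 libraries and holds a telomere repeat, with 1875 copies of the central bases.

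Single deserts varied in how many peaks they held. The longest interval, 5.01 Mb at chr14:88671397-93685747 between the protocadherin genes Pcdh20 and Pcdh9, held 269 regions, 11 of them in at least 6 libraries. Its peaks numbered 22 and 54 in the WT and 20 and 87 in the Suv39h dn libraries of asynchronous cells. They numbered 6 and 11 (WT) and 1 and 9 (Suv39h dn) in mitotic cells. In chromosomes there were 91 and 66 (WT) and 71 and 43 (Suv39h dn). The interval at chr8:49043952-53311726 between Tenm3 and Aga, 4.27 Mb long, held 245 regions. That at chr18:25954158-30072746 between Celf4 and Pik3c3, 4.12 Mb long and nearly as long, held 96.

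The other long intervals were intermediate. The one at chr1:100452630-104568528 between Cntnap5b and Cdh20 held 143 regions and the one at chr14:80200303-84243562 between Olfm4 and Pcdh17 held 153. In a library 9.47% to 86.9% of all intervals held at least 1 peak.

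Chromosomes differed in the share of their peaks in deserts. Chromosome 12 had the highest mean over the 12 libraries, 17.6% with a range of 8.94% to 22.6%, and 34.6% of its bases are desert. Chromosome 7 had the lowest, 3.90% with a range of 0 to 7.60%, and 15.8% of its bases are desert. The share of peaks was below the share of bases on all 19 autosomes, at 0.247 of it on chromosome 7 and 0.517 on chromosome 16.

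Regions were also assigned to the gene with the nearest start. For 15 developmental regulators that border deserts, 14 had desert sequence nearest to them, 8.92 Mb with 392 regions, or 43.9 per Mb. For 15 neuronal adhesion genes there were 26.5 Mb with 1076 regions, or 40.6 per Mb. Over all 1585 genes with desert sequence the density was 46.0 per Mb, so both lists were slightly under it. Multi-copy bases were found at 27.6% of the regions of developmental regulators and 44.2% of those of adhesion genes, against 38.1% of all, and the 5 words at 10.5% and 18.5%, against 15.8%. These are descriptions of regions that share libraries, with no test.

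Among the developmental regulators, Sox9, which directs cartilage and testis development, had 55 regions, with 6 and 8 peaks (WT) and 5 and 18 peaks (Suv39h dn) in asynchronous cells. In chromosomes it had 10 and 13 (WT) and 12 and 11 (Suv39h dn). Nr2f1, a nuclear receptor of neural development, had 47, Dach1 42, Sall1, a zinc-finger factor of kidney development, 41, and Otx2 had no desert sequence nearest to it. In mitotic cells the Sox9 desert had 1 and 1 peaks (WT) and 1 and 2 (Suv39h dn).

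Of the adhesion genes, Pcdh9 had 185 regions, 11 of them in at least 6 libraries, Cdh8 had 167 and Pcdh7 had 119. The Pcdh9 peaks numbered 16 and 36 (WT) and 18 and 60 (Suv39h dn) in asynchronous cells. They numbered 5 and 10 (WT) and 0 and 7 (Suv39h dn) in mitotic cells, and 66 and 48 (WT) and 56 and 30 (Suv39h dn) in chromosomes. These are counts that are not scaled for the lengths of the lists.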

How the data were processed

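ATAC-seq was made from 12 libraries, 2 in each of 6 groups named by the labels. The authors trimmed reads with Trim Galore 0.4.4, aligned them with Bowtie2 2.2.9 to mm10, removed duplicates, improper pairs and mitochondrial alignments, shifted ends, kept nucleosome-free fragments with deepTools and called peaks per library with MACS2. Whether the stated removal of blacklisted regions is in the lists was not tested, and no filter on mapping quality is named in the sources used here. Each deposited row holds a peak's fold enrichment (a ratio), its −log10 of p and of q, a score and the summit offset. Fold and p gave whole fragments and background for 422723 of 422723 peaks with −log10 p under 60, where a whole number had to return the deposited −log10 p within 0.2% (or 0.2% of 1 where it was lower). No depth per library is part of the lists, and list lengths limit the precision.

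Summits were measured against GENCODE vM21 starts, and windows were read from GRCm38. Overlapping or touching peaks were merged. Tests were exact two-sided permutation tests over libraries or groups, adjusted over 14 tests. The members, lists and tests were chosen with earlier results of these data known. Regions named were those called in most libraries (6), in 1 preparation alone (3 each) and in 1 genotype alone (1 per preparation), ranked by mean percentile of fold, with the 5 longest intervals and the chromosomes of highest and lowest share. Telomere repeats, words, copy numbers and the test of masked bases were added after seeing the data. Alternatives were other distances (100 and 500 kb), starts of every gene type, a stricter q, equal list lengths (1700 peaks), the 5000 strongest peaks, an overlap of 50%, a window of 50 bp, a replicate block and leaving out each library. The software was numba 0.67.0, matplotlib 3.10.9, pandas 2.3.3, scipy 1.17.1 and numpy 2.4.6 under Python 3.11.15, and functions were tested on simulated lists.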

Additional observations from a re-analysis of the deposited data

How the results depend on the processing

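Precision is limited by 2 libraries per group and by the shortest lists, and 4 against 4 libraries cannot give an exact permutation p under 0.0286. Differences in GC, repeat-masked and multi-copy percent kept direction and side of the threshold under all alternatives run. The 5000 strongest peaks left out the Suv39h dn mitotic library 1, which has 1700. The cause of each change below was not tested.

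The desert share of mitotic minus asynchronous cells lost its raw call with q at or under 1e-05 (-1.62, exact permutation p = 0.457), and with exchange only within genotype (-3.72, p = 0.0556 by the exact permutation test). Chromosomes minus mitotic cells did so with q at or under 1e-05 (4.62, exact permutation p = 0.0857) and with that exchange (4.80, exact permutation p = 0.0556). By replicate number, 2 of 15 pairs of groups correlated above 0.1 (-0.0452 to 0.211). Both were WT with Suv39h dn of 1 preparation, asynchronous (0.211) and mitotic (0.166). The 2 asynchronous libraries numbered 2 shared 33.6% of desert regions, above the 23.6% and 17.4% of the replicate pairs. The lowest background was 0.149 and 0.172 in those numbered 1 and 0.306 and 0.304 in those numbered 2. Whether the numbers mark batches was not tested. Under the replicate block the exact permutation p was 0.125, the smallest possible, for -3.72, for 4.80 and for the multi-copy difference of chromosomes minus asynchronous cells, 12.9, which also lost its call with exchange within genotype (12.9, exact permutation p = 0.0556). The block moved no other call. Leaving out 1 library gave -4.24 to -2.76 and 4.18 to 5.49 for the shares and 11.3 to 14.7 for the multi-copy difference, with exact permutation p of 0.0286 to 0.0571. The value of 0.0571 arose without WT mitotic 1 for the first (-3.27), without WT mitotic 1 (4.34), WT mitotic 2 (4.83) or Suv39h dn mitotic 2 (4.84) for the second, and without WT chromosomes 2 (13.1) or Suv39h dn chromosomes 2 (11.3) for the third. Chromosomes minus asynchronous cells turned to -0.246 with single-copy peaks, was 3.00, 3.44 and 3.60 with q at or under 1e-05, equal lengths and the 5000 strongest (exact permutation p = 0.0571) and 1.80 at 100 kb, and spanned 0.452 to 2.04 with a library left out. The genotype difference stayed under the threshold throughout, with 0.120 to 2.23 over alternatives and 0.527 to 1.65 with a library left out.

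Multi-copy percent of desert peaks, mitotic minus asynchronous, was 20.7 with q at or under 1e-05 and 21.2 with equal list lengths (exact permutation p = 0.0286), and 1.66 to 11.1 with a library left out. Chromosomes minus mitotic was 24.3 with equal lengths and 33.4 with the 5000 strongest peaks (exact permutation p = 0.0286), and 1.78 to 11.2 with a library left out. Its genotype difference turned to -1.60 with starts of every gene type and was 1.26 to 9.97 with a library left out, the extremes without Suv39h dn mitotic 1 and 2. Replicate recurrence turned to 1.52 with q at or under 1e-05, 3.67 with equal lengths and 0.472 with the 5000 strongest, and was -5.17 (exact permutation p = 0.0312) with single-copy peaks. The log2 median fold difference was 0.0971, 0.134 and 0.0344 under the first 3 of these (exact permutation p = 0.0176, 0.000488 and 0.0391), -0.019 with all starts and -0.0102 with single-copy peaks. The CTCF difference was -0.202, -0.147 and -0.210 under the same 3 (exact permutation p = 0.105, 0.465 and 0.164).

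Counts of regions called in 1 preparation alone, for asynchronous cells and chromosomes, were 425 and 427 at 100 kb, 89 and 78 at 500 kb, 19 and 19 with starts of every gene type, 109 and 53 with q at or under 1e-05, 13 and 37 with equal lengths, and 17 and 66 with the 5000 strongest, and 91 for chromosomes with single-copy peaks. For mitotic cells, 4 and 1 were called with equal lengths and the 5000 strongest. Leaving out 1 library gave 227 to 604, 250 to 462 and 0, with fewer libraries that had to be called or to lack a peak. Counts for WT and Suv39h dn alone were 930 and 1152 at 100 kb, 188 and 257 at 500 kb, 44 and 62 with all starts, 48 and 158 with q at or under 1e-05, 28 and 24 with equal lengths, 94 and 226 with the 5000 strongest and 332 and 412 with single-copy peaks. Leaving out 1 library gave 576 to 3993 and 712 to 6368. The WT count moved by over 1.5 times without WT asynchronous 1 (1574) or 2 (863), WT mitotic 1 (1013), WT chromosomes 1 (3993) or 2 (3825), Suv39h dn asynchronous 2 (992) and Suv39h dn chromosomes 1 (894). The Suv39h dn count did so without WT asynchronous 2 (1297), Suv39h dn asynchronous 1 (6368) or 2 (1219), mitotic 1 (1221) and chromosomes 1 (2354) or 2 (4922). Where a library of the counted genotype was left out, 1 library had to be called instead of 2.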
